A study of Mus musculus with 4 samples.

Results

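The heat shock chaperones of the germ line were followed in whole testes of Azin2 KO and WT mice, over 10 genes chosen by name: Hspa2, Hspa1l, Hspa4l, Hspa8, Hspa5, Hsp90aa1, Hsp90ab1, Hspb1, Hsf1 and Hsf2. Of these, 8 have a probe set that the annotation of the Affymetrix Mouse Gene 1.1 ST array pairs with that symbol alone, out of 18820 genes with a value of their own. Hsp90ab1 and Hsf1 are paired with no probe set in the annotation used here and were not analysed. The KO animals were adult males, 3 to 4 months old like the study's animals in general, of a C57BL/6 mixed background. They carry a β-Geo cassette in the Azin2 locus, so that the Azin2 promoter drives an N-terminal AZIN2 fragment fused to β-galactosidase. The WT animals were adult males with the Azin2 wild type genotype, and no treatment is described for either group. Each genotype was measured on 2 arrays, every one with RNA pooled from 3 testes according to the labels, or from 3 mice according to the text of the study.

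Heat shock proteins of the HSP70 family bind unfolded stretches of other proteins and release them in a cycle of ATP hydrolysis, helped by J proteins and nucleotide exchange factors. HSP90 proteins take over clients at a later stage of folding, and small heat shock proteins hold unfolded proteins without using ATP. The heat shock factors HSF1 and HSF2 bind DNA at heat shock elements. They are not chaperones themselves, but Hsf2 is counted among the chaperone genes below. Male germ cells make variants of their own: HSPA2 appears in meiotic spermatocytes, where it is needed for the activity of CDK1 and for the end of meiotic prophase, and HSPA1L is made in spermatids.

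Promoter windows of 6 of the 10 genes (Hspa2, Hspa1l, Hspa4l, Hspa5, Hspb1 and Hsf2) were found in RefSeq sequence of GRCm38.p6, and the 250 bases before an annotated transcript start were searched on both strands. For Hspa2 this window lies inside the span that RefSeq gives the gene, downstream of a more upstream start, whose own promoter was not searched. The windows of Hspa2, Hspa5 and Hspb1 are printed because they hold matches to different classes of control element. Capitals mark the CCAAT box in Hspa2 (its other strand reads ATTGG), the ER stress response element in Hspa5 (CCAAT and CCACG with 9 bases of any kind between them), and the heat shock element pair GAANNTTC in Hspb1. All are on the plus strand and written 5′ to 3′, at chr12:76404120-76404369 for Hspa2, chr2:34771840-34772089 for Hspa5 and chr5:135887669-135887918 for Hspb1.
Hspa2: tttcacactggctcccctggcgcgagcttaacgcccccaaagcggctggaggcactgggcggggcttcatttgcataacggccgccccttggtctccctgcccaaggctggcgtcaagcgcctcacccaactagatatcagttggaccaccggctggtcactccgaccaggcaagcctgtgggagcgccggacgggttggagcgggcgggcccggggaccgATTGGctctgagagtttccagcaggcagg
Hspa5: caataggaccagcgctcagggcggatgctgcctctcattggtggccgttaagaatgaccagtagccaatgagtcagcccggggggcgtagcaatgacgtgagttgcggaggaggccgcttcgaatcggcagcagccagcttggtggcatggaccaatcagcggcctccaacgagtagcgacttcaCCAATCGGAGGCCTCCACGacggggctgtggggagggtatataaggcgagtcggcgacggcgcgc
Hspb1: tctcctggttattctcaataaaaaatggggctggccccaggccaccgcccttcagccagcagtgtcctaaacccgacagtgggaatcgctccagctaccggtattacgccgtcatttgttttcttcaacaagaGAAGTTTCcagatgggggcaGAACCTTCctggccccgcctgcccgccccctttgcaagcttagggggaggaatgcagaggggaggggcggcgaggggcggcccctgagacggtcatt
The pair GAANNTTC occurred 2 times in the Hspb1 window and in none of the other 5, against 6.69% of 32851 windows of the same length. The opposite pair TTCNNGAA, which can overlap it, was in none of the 6 (7.17% of all windows). Of the 6, only the Hspa5 window held the ER stress response element, which 0.113% of all windows hold. Its first bases are themselves a CCAAT box, and CCAAT was found in 4 of the 6 windows, 4 times in Hspa5 (33.8% of all windows). The core TGACG of the cyclic AMP response element, which the germ cell factor CREM binds, was present once in each of 5 of the 6 windows, all but Hsf2 (17.8% of all windows). These are matches of letters and not measured binding sites.

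Azin2, the targeted gene, read 7.36 and 7.14 on the log2 scale in the KO pools, and 10.16 and 9.998 in the WT pools, so that the arrays follow their genotype labels. All values below are log2 signals per probe set after RMA, and n is 2 arrays for each genotype. The array medians lay between 6.08 and 6.11, and no array stood apart in the SD of its differences from the others, which ranged from 0.156 to 0.181. Spermatid markers (19 of 20 with a value) and spermatocyte markers (15 of 15) were above the array median on all 4 arrays, and so were the 8 chaperone genes. Of these 8 genes, 6 had a signal above 11 on every array, among the brightest 4.27% to 4.33% of probe sets, and the highest signal on any array was 12.89.

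For none of the 8 genes did the difference between KO and WT testes pass a test. No gene reached an adjusted p under 0.05 in limma, where 0.00433% of the 23099 named probe sets did (1 probe set, that of Azin2). The combination of a 1.5-fold change with an unadjusted p under 0.05 was met by 0 of the 8, against 0.0823% of the named probe sets (0.0216% higher and 0.0606% lower in KO). An unadjusted p under 0.05 by itself was met by 0 of the 8, against 4.10% (2.14% higher and 1.96% lower in KO). The log2 differences, KO minus WT, lay between -0.036 for Hspa4l and 0.079 for Hspb1, with a median of -0.0063, and the median over all named probe sets was 0.011. Of the 8, 4 were above 0 and 4 below, where 56.9% of the named probe sets were above 0. Every adjusted p of the 8 was 1 by limma with Benjamini-Hochberg adjustment.

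**Figure D1:**
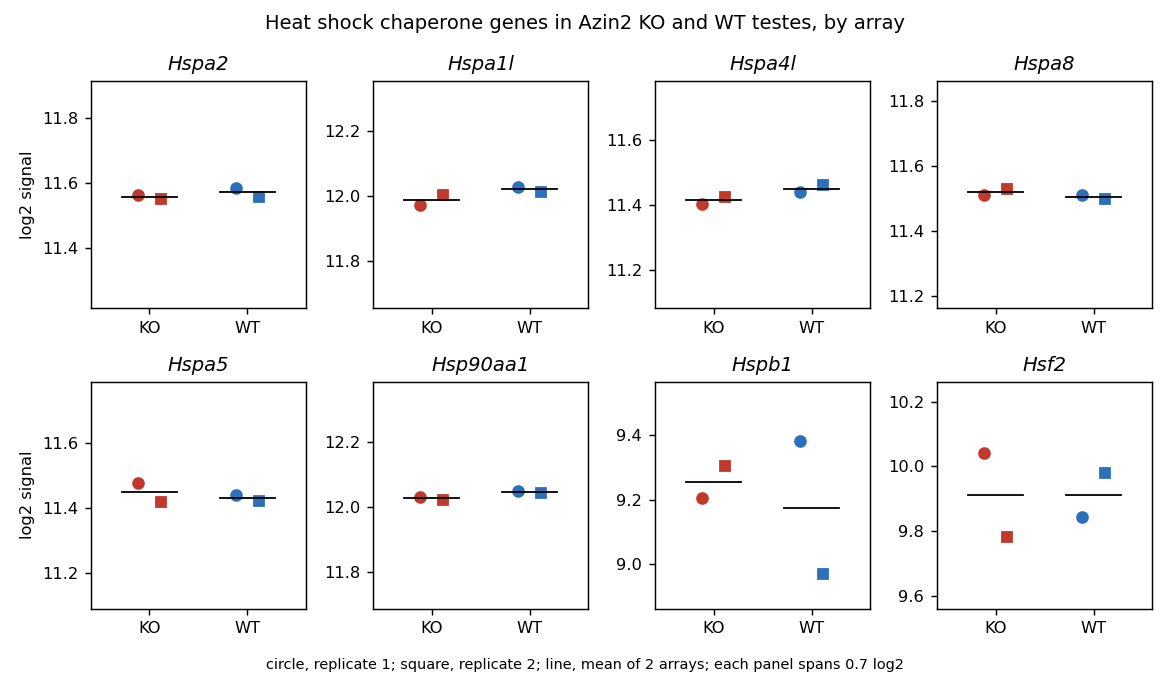
Log2 signal (vertical axis) of 8 heat shock chaperone genes in KO (red) and WT (blue) testes, with 1 point for each array and a line at the mean of 2 arrays. Every panel spans a range of the same width, centred on the mean of its own gene, so heights do not compare between panels. The points of Hspa2, Hspa1l, Hspa4l, Hspa8, Hspa5 and Hsp90aa1 lie close together, while Hspb1 in WT (8.97 to 9.38) and Hsf2 in KO (9.78 to 10.04) spread between arrays of one genotype.

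Hspa2, the HSP70 of meiotic spermatocytes, read 11.56 and 11.55 in KO and 11.59 and 11.56 in WT. The genotypes overlapped, and the 4 arrays lay within a few hundredths of a log2 unit. The difference was -0.013 (95% confidence interval -0.14 to 0.11, unadjusted p = 0.795 from limma), which puts the KO signal at 0.991 times that of WT with an interval from 0.909 to 1.08. In RNA of whole testes, fewer cells of a type and less RNA in each cell cannot be told apart. Its window printed above has a CCAAT box and a TGACG core but neither arrangement of the heat shock element.

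Hspa1l, the HSP70 of spermatids, read 11.97 and 12.00 in KO and 12.03 and 12.01 in WT. Both KO arrays were below both WT arrays, narrowly: the closest were 12.003 (KO replicate 2) and 12.011 (WT replicate 2). Its log2 difference was -0.032 (95% confidence interval -0.16 to 0.093, unadjusted p = 0.536 from limma). A second probe set of this gene, with a dimmer signal, read 7.54 and 7.43 in KO and 7.66 and 7.54 in WT. There, too, the KO arrays were narrowly the lower ones, the closest at 7.539 (KO replicate 1) and 7.545 (WT replicate 2). The difference was -0.12 (95% confidence interval -0.29 to 0.060, unadjusted p = 0.149 from limma). Neither probe set passed the test.

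Hspa4l, an HSP110 protein of germ cells that serves HSP70 as a nucleotide exchange factor, read 11.40 and 11.43 in KO and 11.44 and 11.46 in WT. The KO arrays were again below the WT arrays, with a difference of -0.036 (95% confidence interval -0.16 to 0.088, unadjusted p = 0.491 from limma). Hspa1l, Hspa4l and Hsp90aa1 were the 3 of 8 genes whose genotypes did not overlap, and KO was lower in all 3. Among the named probe sets, 32.5% did not overlap, 12.3% with KO lower and 20.1% with KO higher, and whether the 3 of 8 differ from these shares was not tested. The spread behind such small gaps was itself small: the SD within groups had a median of 0.036 over the named probe sets with a mean above 11 and 0.059 over all.

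Hspa8 encodes HSC70, the constitutive HSP70 of the cytosol. Its brightest probe set read 11.51 and 11.53 in KO and 11.51 and 11.50 in WT, with overlapping groups and a difference of 0.015 (95% confidence interval -0.11 to 0.14, unadjusted p = 0.761 from limma). The named probe sets nearest to it in number were all of genes on chromosome 5 (10 of 10), whereas Hspa8 lies on chromosome 9. The brightest probe sets of Hsp90aa1 and Hspb1 also have their neighbours on another chromosome than the gene. Whether these 3 probe sets read the named gene or another transcript of like sequence was not tested, so the values printed for the 3 genes may be those of another transcript. A second probe set, with neighbours on chromosome 10, had a difference of -0.014 (unadjusted p = 0.773 from limma). One further probe set, the only one of its own with neighbours on chromosome 9, read 11.15 and 11.45 in KO and 11.44 and 11.33 in WT. KO replicate 1 was the low array, and the difference was -0.086 (95% confidence interval -0.37 to 0.20, unadjusted p = 0.472 from limma). Another pair of probe sets is shared by Hspa8 with the small nucleolar RNA genes Snord14c and Snord14d, which lie in its introns. Both hold the same values, 6.04 and 6.58 in KO and 6.84 and 6.09 in WT, and give Hspa8 no value of its own.

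Hspa5, or BiP, is the HSP70 of the endoplasmic reticulum and rises when unfolded proteins gather there. It read 11.48 and 11.42 in KO and 11.44 and 11.42 in WT, with overlapping groups. Its difference was 0.018 (95% confidence interval -0.11 to 0.15, unadjusted p = 0.743 from limma). Its window, printed above, was the 1 of 6 with the ER stress response element. Of 26 genes of ER folding and of the unfolded protein response, 24 had a value (18 above 0 and 6 below, median 0.016). In limma, 0 of the 24 passed an unadjusted p of 0.05 in either direction. They ranged from -0.081 for Eif2ak3, the ER stress kinase PERK, to 0.11 for Dnajc3, a J protein of the ER. Dnajc3 read 9.67 and 9.66 in KO and 9.54 and 9.56 in WT, with both KO arrays higher (95% confidence interval -0.0094 to 0.24, unadjusted p = 0.0636 from limma). Clgn, the calmegin of germ cells that folds sperm membrane proteins, differed by 0.017 (95% confidence interval -0.12 to 0.16).

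Hsp90aa1, the inducible HSP90 of the cytosol and an abundant protein of germ cells, read 12.03 and 12.02 in KO and 12.05 in both WT pools. Both KO arrays were below both WT arrays, with a difference of -0.020 (95% confidence interval -0.14 to 0.10, unadjusted p = 0.694 from limma). The other probe sets of the gene gave -0.024 and -0.041, and in all 3 both KO arrays lay below both WT arrays. Probe sets of 1 gene are not replicates of a genotype. The brightest has its neighbours in number on chromosome 11 (10 of 10), the second on chromosome 12, where Hsp90aa1 lies (9 of 10), and the dimmest on chromosome 3 (10 of 10). HSP90 co-chaperones, 21 of 24 with a value, had a median of 0.026 with 16 above 0 and 5 below. In limma, 0 of the 21 passed an unadjusted p of 0.05. Their extremes were -0.095 for Cdc37l1, a relative of the kinase co-chaperone CDC37, and 0.12 for Rpap3, a subunit of the R2TP complex.

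Hspb1, the small heat shock protein HSP25, is made in somatic cells of the testis as well as in germ cells. It varied between arrays of one genotype more than 96.7% of the named probe sets. The values were 9.20 and 9.30 in KO and 9.38 and 8.97 in WT. WT replicate 2 was the lowest array and WT replicate 1 the highest, so that the KO arrays lay between them. The difference of 0.079 (95% confidence interval -0.29 to 0.44, unadjusted p = 0.602 from limma) was 0.28 without WT replicate 1, where its unadjusted p was 0.0209 and its adjusted p 0.920 from limma, and -0.13 without WT replicate 2. Its interval spans KO signals from 0.820 to 1.36 times those of WT.

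The Hspb1 window printed above was the 1 of 6 with the pair GAANNTTC. The probe set that gives Hspb1 its value has all its neighbours in number on chromosome 13 (10 of 10), while the gene lies on chromosome 5. A second probe set, with its neighbours on chromosome 5, had the same order of arrays, at 9.02 and 9.11 in KO and 9.19 and 8.76 in WT. Another, dim probe set, also with neighbours on chromosome 13, stayed under 5 on all arrays, below the array medians, with a difference of -0.075 (unadjusted p = 0.189 from limma). Several marker lists were lowest on WT replicate 2, as Hspb1 was. The median deviation of 13 Sertoli cell markers from their mean over the arrays was -0.086 there, against -0.0052 to 0.061 on the other arrays, and that of 6 peritubular myoid markers was -0.12, against -0.0067 to 0.071. The 12 spermatogonia markers were at -0.085 there, against 0.033 to 0.064, and the 2 of 5 red blood cell markers with a value at -0.085, against -0.013 to 0.083. None of these lists was highest on WT replicate 1, where Hspb1 was highest. On WT replicate 2, macrophage markers were highest, at 0.20, against -0.23 to 0.035. Spermatid markers were highest there too, at 0.023. Leydig cell (-0.029), endothelial (0.0080) and spermatocyte (-0.012) markers were neither lowest nor highest there. The part of these cells in the Hspb1 values was not tested. The mean log2 level of the Sertoli cell markers was 8.44 and 8.53 in KO and 8.46 and 8.34 in WT. That of the peritubular myoid markers was 8.40 and 8.41 in KO and 8.42 and 8.28 in WT.

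Hsf2, the heat shock factor prominent in spermatocytes, read 10.04 and 9.78 in KO and 9.84 and 9.98 in WT. Replicate 1 was the higher array in KO and replicate 2 in WT, so that the means were nearly the same and the groups overlapped. The difference was 0.0005 (95% confidence interval -0.27 to 0.27, unadjusted p = 0.996 from limma), which became -0.13 when KO replicate 1 was left out and 0.13 when KO replicate 2 was. The interval covers KO signals from 0.830 to 1.21 times those of WT. Other heat shock factors and their regulators, 6 of 7 with a value, lay between -0.031 for Hsf3 and 0.041 for Hsf5, a factor of spermatocytes. Hsf5 read 10.90 and 10.93 in KO and 10.87 and 10.88 in WT (unadjusted p = 0.430 from limma), whereas the signal of Hsf3 was under 4 on all arrays.

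**Figure D2:**
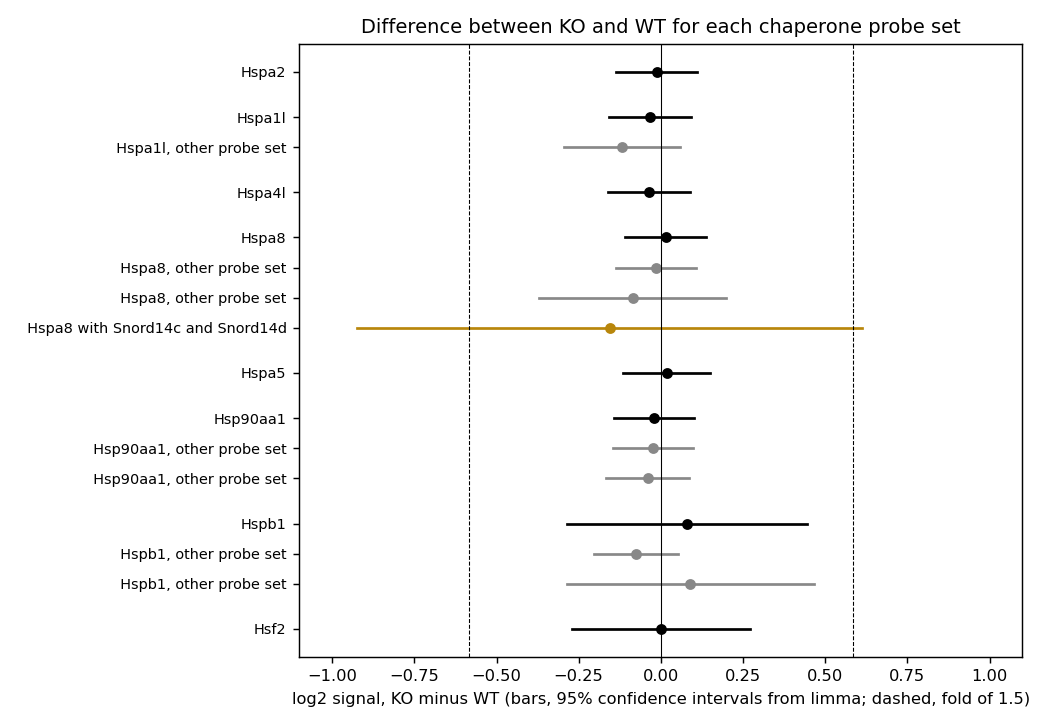
Log2 signal in KO minus WT testes (horizontal axis) for each probe set of the 8 genes, with 95% confidence intervals from limma. Black marks the probe set that gives the gene its value, grey its other probe sets and ochre the pair shared by Hspa8 with Snord14c and Snord14d, drawn once. Every black and grey interval covers 0 and stays inside the dashed lines at a fold of 1.5, and the shared one, -0.93 to 0.61, does not.

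**Figure D3:**
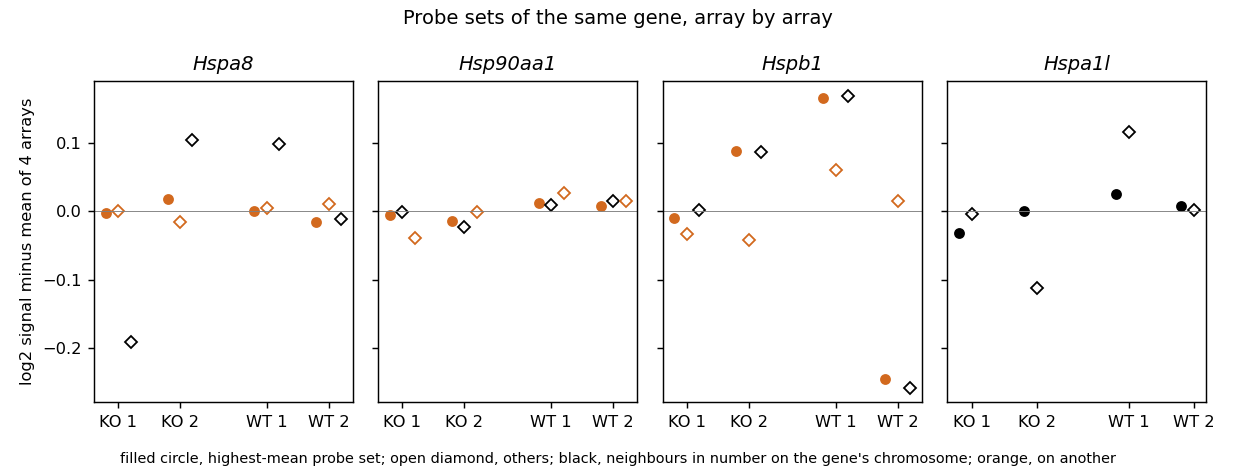
Log2 signal of each probe set minus its mean over the 4 arrays (vertical axis) for the genes with more than 1 probe set of their own, by array. Filled circles are the probe sets with the highest mean and open diamonds the others, black where the nearest named probe sets in number belong to the chromosome of the gene and orange where they belong to another. WT replicate 2 is low in 2 of the 3 Hspb1 probe sets, and KO replicate 1 in 1 of the 3 Hspa8 probe sets.

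Few of the genes around these chaperones passed a test. Of 153 genes in 10 overlapping lists of chaperones, co-chaperones, their regulators and their partners, 136 had a value. At an unadjusted p under 0.05 in limma there was 1 gene higher and 0 lower in KO testes (0.735% of the 136, against 4.10% of all named probe sets). None reached a 1.5-fold change with that p or an adjusted p under 0.05. The median difference over the 136 was 0.011, as over all named probe sets. That 1 gene was Hspb7, a small heat shock protein of heart and muscle. Hspb7 read 8.61 and 8.25 in KO and 7.96 in both WT pools, a difference of 0.47 (95% confidence interval 0.15 to 0.78) or a fold of 1.38, with an unadjusted p of 0.0124 and an adjusted p of 1 from limma. Both KO arrays were above both WT arrays, KO replicate 1 the more so. The difference was 0.29 without KO replicate 1. Without KO replicate 2 it was 0.64, past a 1.5-fold change, but on a single KO array. By the ordinary equal-variance test on all arrays the unadjusted p was 0.119.

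Among the other small heat shock proteins, 8 of 10 had a value, 6 above 0 and 2 below, with a median of 0.028. Odf1, a small heat shock protein of the outer dense fibres of the tail, read 12.14 and 12.18 in KO and 12.14 in both WT pools. Hspb9, a testis-specific member, was at 10.85 in both KO pools and at 10.86 and 10.73 in WT, a difference of 0.059 (95% confidence interval -0.11 to 0.22). Hspb8, which acts with BAG3 in autophagy, had the lowest difference of that list, -0.17 (unadjusted p = 0.0856 from limma), at signals under 6 on all arrays. Odf1, Hspb9, Clgn, Dnajb3, Dnajb13, Bag6, Hsph1, Hspa1a and Hspa1b are described for their known roles and were chosen after their values were seen.

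In the other members of the HSP70, HSP110 and HSP90 families, 10 of 12 had a value, with a median of 0.012. Hspa12a, a distant HSP70 relative, was at the low end (-0.15, 95% confidence interval -0.39 to 0.085) and Hspa4, the ubiquitous relative of Hspa4l, at the high end (0.037, 95% confidence interval -0.086 to 0.16). The heat-inducible twins Hspa1a and Hspa1b share their 3 probe sets with each other. The bright one read 11.19 and 11.17 in KO and 11.17 and 11.21 in WT, a difference of -0.0074 (unadjusted p = 0.887 from limma). The other shared probe sets were dim, with differences of 0.072 and 0.055. Of 18 genes induced by HSF1, 13 had a value of their own, at a median of 0.010. In limma, 0 of the 13 passed an unadjusted p of 0.05. Cacybp, which binds calcyclin, was the highest of them at 0.073 and Hspb8 the lowest. Hsph1, an inducible HSP110, read 8.65 and 8.85 in KO and 8.78 and 8.83 in WT.

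J proteins, the partners that set the clients of HSP70, had 44 of 47 genes with a value, 20 above 0 and 24 below, at a median of -0.0078. Dnajc9, a histone co-chaperone, lay lowest at -0.13 (unadjusted p = 0.0934 from limma) and Dnajc19 of the mitochondrial inner membrane highest at 0.16 (unadjusted p = 0.142 from limma). With the mean of its probe sets in place of the brightest, Dnajc19 was at 0.079 (unadjusted p = 0.288 from limma). The chromosome of neighbouring probe sets was looked at for the chaperone genes described above only. Which transcripts the values of Dnajc19 and the other listed genes read was therefore not tested. The sperm flagellar Dnajb13 read 11.42 and 11.41 in KO and 11.37 in both WT pools. Its difference was 0.049 (unadjusted p = 0.346 from limma). By the ordinary equal-variance test its unadjusted p was 0.0151 and its adjusted p 0.969. Dnajb3, of spermatids, read 11.23 and 11.18 in KO and 11.12 and 11.19 in WT. Nucleotide exchange factors and other HSP70 regulators, 11 of 12 with a value, ran from -0.057 for Bag1 to 0.098 for Bag2, both BAG domain proteins that release clients. Bag6, which keeps HSPA2 stable in the testis, differed by 0.0039 (95% confidence interval -0.14 to 0.14). Partners and clients of HSPA2, 8 of 9 with a value, spanned -0.046 for Cdc25c, a phosphatase that activates CDK1, to 0.053 for Sycp1, a protein of the synaptonemal complex. All 11 chaperonin genes had a value, with a median of 0.037, from -0.023 for Tcp1 to 0.080 for Cct6a, both subunits of the TRiC ring. Among the J proteins, exchange factors, HSPA2 partners and chaperonins, 0 genes passed an unadjusted p of 0.05 in limma.

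**Figure D4:**
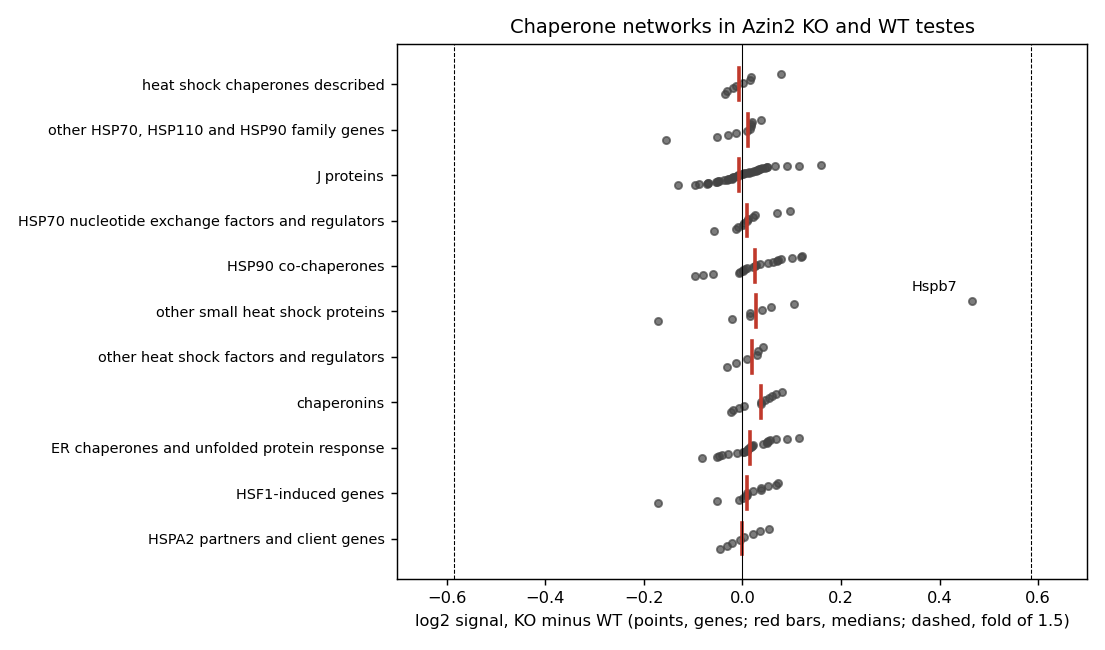
Log2 signal in KO minus WT testes (horizontal axis) of the 8 chaperone genes and of the genes in 10 lists around them, which share some genes. Points are genes, red bars are medians and dashed lines mark a fold of 1.5. No point lies past the dashed lines, and Hspb7 at 0.47 stands apart from the rest.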

How the data were processed

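RNA of whole testes was hybridized to 4 Mouse Gene 1.1 ST arrays. The deposited values are log2 signals for 35556 probe sets. The submitters' processing notes name RMA and Partek 6.13.1224. The genome build is not given in the sources used here. Of the probe sets, 21218 carry 1 symbol, 1881 several and 12457 are unnamed here. Symbols were updated through gene identifiers. The probe set of highest mean gave a gene its value. The test of KO against WT was limma (version 3.58.1, R 4.3.3, lmFit and eBayes, no filter) over the 23099 named probe sets, with Benjamini-Hochberg adjustment. Intervals are at 95%, and the fit was tested on simulated data. Promoters were searched in Python 3.11.15, and figures drawn with matplotlib 3.10.9. Members and lists were chosen with earlier results of these data known. Genes were named by rule: all members, Azin2, the extremes of each chaperone list, any gene of those lists at an unadjusted p under 0.05, and marker genes past both the fold and that p. Genes named outside the rule, after their values were seen, are identified where described. Nothing says that a pool shares no animals with another, so p-values measure the spread between arrays, whose number limits the precision. Alternatives covered the prior, test, normalization, filters, probe set choice, replicate block and each array left out.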

Additional observations from a re-analysis of the deposited data

How the results depend on the processing

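With 2 arrays for each genotype, the spread shared between probe sets largely set the intervals of the 6 genes with a signal above 11. Those of Hspb1 and Hsf2 were set more by the spread of their own arrays. Differences smaller than the intervals were not detectable. Across the alternatives, 111 of 120 values of single chaperone genes kept their direction and their side of the threshold. Changes of prior, test, filter or replicate block leave the log2 difference itself unchanged, so those values could not turn sign. The sign turned in 5 values with an array left out and in 4 under other settings. In the settings run, no chaperone gene passed an adjusted p of 0.05 (the smallest was 0.920) or joined an unadjusted p under 0.05 with a 1.5-fold change. A limit of 1.2-fold or 2-fold, run on all arrays only, gave 0 as well, but Hspb1 without WT replicate 1 (0.284) was past 1.2-fold. The count at an unadjusted p under 0.05 stayed at 0, other than 1 (Hspb1) without WT replicate 1. The number of genes whose genotypes did not overlap, 3, was 2 with each array centred (33.7% of all named probe sets did not overlap). It ranged from 5 to 7 with each array left out, as 1 array against 2 overlaps less often (64.2% to 68.8% of all named probe sets did not overlap). The median of the 8 differences, -0.0063, was 0.003 with each array centred, -0.0206 with the mean of a gene's probe sets and -0.0186 with the probe set of the gene's own chromosome (chosen after the data were seen), and ranged from -0.0237 to -0.0006 with each array left out. The sign turned for Hsp90aa1 (0.0012), Hsf2 (-0.0033) and Bag6 (-0.0089) with quantile normalization, and for Hspa8 with the mean of its probe sets (-0.0284) and with that of its own chromosome (-0.0859). When each array was left out, it turned within the ranges of -0.0277 to 0.0013 for Hspa2, -0.0119 to 0.0473 for Hspa5, -0.1261 to 0.284 for Hspb1, -0.1298 to 0.1308 for Hsf2, -0.047 to 0.0016 for Tcp1, -0.166 to 0.0034 for Eif2ak3, -0.2003 to 0.1082 for Cdc25c, -0.0088 to 0.1264 for Hspb9, -0.0031 to 0.0345 for Odf1, -0.0219 to 0.0565 for Clgn, -0.0353 to 0.043 for Bag6 and -0.1504 to 0.0451 for Hsph1. The cause was not tested. Azin2 did not pass an adjusted p of 0.05 by the ordinary test (0.868), over every probe set (0.0707), or without WT replicate 1 (0.294) or WT replicate 2 (0.232). Over the named probe sets, the differences between replicates of KO and of WT correlated at -0.082. This rests on a single difference in each genotype, so it cannot decide whether the replicate numbers pair the arrays. With the replicate block, 0 chaperone genes were called, and an unadjusted p under 0.05 was reached by 692 named probe sets, against 946 without it. The block cannot move the median of -0.0063, since each replicate number holds a KO and a WT array.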

Other observations

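Genes of other cell types and of tissue handling were read on the same arrays, where 56.9% of the named probe sets were above 0 in KO minus WT. Each list is given with the median deviation of its genes from their mean over the arrays. Of 16 immediate early genes, which rise within minutes of a stimulus, 11 were lower and 5 higher in KO, with a median of -0.079. Their median deviation was -0.044 (KO replicate 1), 0.0073 (KO replicate 2), 0.041 (WT replicate 1) and -0.015 (WT replicate 2), so that the genotypes overlapped. The 8 endothelial markers were all below 0, with a median of -0.057. Their deviations were -0.039 and -0.0076 in KO and 0.048 and 0.0080 in WT, and did not overlap between genotypes. Of 10 macrophage markers 9 were below 0, with a median of -0.15. Their deviations, -0.23 and 0.035 in KO and -0.065 and 0.20 in WT, overlapped between genotypes. An unadjusted p under 0.05 in limma was reached by 1 immediate early gene (Ier3), 0 endothelial markers and 1 macrophage marker (Lyz2, -0.56), and an adjusted p under 0.05 by none.

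In germ cells, 13 of 19 spermatid markers were below 0, at a median of -0.018 and in a range from -0.064 to 0.035, and 0 had an unadjusted p under 0.05 in limma. Of 15 spermatocyte markers 11 were above 0, at a median of 0.036, and Tex101 and Ovol1 had such a p, both higher in KO. Of 12 spermatogonia markers 9 were above 0, at a median of 0.039, and 1 had such a p. This was Lin28a, an RNA-binding protein of undifferentiated spermatogonia, at 6.77 and 6.73 in KO and 6.55 and 6.49 in WT (unadjusted p = 0.00703 and adjusted p = 1 from limma). Of 9 Leydig cell markers, 7 had a value and all 7 were below 0, at a median of -0.085. KO replicate 1 was the low array of that list, at a deviation of -0.20, while KO replicate 2 was at 0.13 and WT replicates 1 and 2 at 0.13 and -0.029. Sult1e1, the estrogen sulfotransferase, was the 1 of them with a 1.5-fold change and an unadjusted p under 0.05 (8.72 and 9.34 in KO, 10.05 in both WT pools). Sult1e1 did not reach an adjusted p under 0.05 in limma, and its unadjusted p was 0.0805 by the ordinary equal-variance test. Ier3, Lyz2, Tex101, Ovol1 and Lin28a are named after their values were seen.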
